A study of Mus musculus and Homo sapiens with 24 samples.

Results

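The comparison described here set *TET2* KO K-562 cells against wild-type (WT) K-562 cells while both lines carried the same short hairpin RNA against *MBD6* (shMBD6). It asked which genotype differences remained when *MBD6* was lowered in both, as measured relative to the rest of each library. Its members were all genes of the 3 KO shMBD6 and 3 WT shMBD6 libraries, 6 of the 24 libraries of the series, chosen by their titles. K-562 is a line from a chronic myeloid leukaemia that carries *BCR-ABL1* and expresses embryonic and fetal globins. The WT and *TET2*-/- K-562 lines were received from another laboratory that had made them, so each genotype is 1 line. The shMBD6 and shControl cells were made from them by lentivirus with 1 hairpin each and held under puromycin, so all cells compared here, the controls included, carried a lentiviral hairpin and its selection. Polyadenylated RNA was sequenced with ERCC spike-ins from KO shMBD6 and WT shMBD6 cells and from KO shControl and WT shControl cells, which have a non-targeting hairpin and are used here to read whether a genotype difference was also present without shMBD6. The labels do not say that the 3 libraries of a group came from separate cultures, so the p-values measure the spread between these libraries, which may be technical.

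TET2 is a dioxygenase that oxidises the methyl group of m5C (cytosine methylated on its ring) in DNA and RNA, and its loss is common in clonal haematopoiesis and myeloid malignancy. MBD6 is a methyl-CpG-binding-domain protein that joins the BAP1 complex, PR-DUB, which removes ubiquitin from histone H2A at Polycomb-marked chromatin. The study asks how TET2 acts through m5C on RNA held at chromatin, and *MBD6* was lowered to test its part in this. In K-562 cells the main erythroid regulators (GATA1, TAL1, KLF1) drive globin, haem and red cell membrane genes, so these gene groups report the state of the line.

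The 6 libraries held 32563524 to 37353366 gene counts. Of 58721 genes in each file, 17936 passed the filter on low counts over the 12 K-562 libraries and were tested. Levels are counts scaled to the TMM-adjusted library total (CPM), differences are log2 values of KO minus WT from edgeR's quasi-likelihood fit with their standard error (SE), and a gene was called when its Benjamini-Hochberg adjusted p was under 0.05. A level or difference therefore compares a gene with the rest of its library, not with cell number. Replicate 3 of KO shMBD6 stood apart from its group: the squared difference of its counts from those of replicates 1 and 2 was 9.35 to 11.4 times the sampling noise (chi-square per degree of freedom), against 3.12 to 6.25 for the other pairs of libraries within a group. Without it, 7628 genes were called in place of 7985. ERCC spike-ins made up 0.320% ± 0.00162 (SD, n = 3) of gene and spike-in counts in KO shMBD6 and 0.393% ± 0.00236 in WT shMBD6 libraries, without overlap (two-sided exact permutation test, p = 0.1, the smallest that 3 against 3 libraries allow). With shControl the share was 0.361% to 0.384% in KO and 0.865% to 0.874% in WT libraries. Scaling to the spike-ins moved the median difference of all genes from 0.01 to 0.31, so small negative differences turn positive on that scale.

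*MBD6* itself (ENSG00000166987.14, hg38 chromosome 12, 57520710 to 57530148, plus strand) was measured first. It had 38.9, 38.2 and 36.8 CPM in the WT shMBD6 libraries and 43.5, 43.9 and 42.4 CPM in the KO shMBD6 libraries, against means of 82.5 CPM in WT shControl and 77.2 CPM in KO shControl. All 3 KO libraries were above all 3 WT libraries, by 0.19 on the log2 scale (SE 0.0555, edgeR adjusted p 0.0091). Relative to the rest of the library, the knockdown thus left slightly more *MBD6* RNA in KO cells. That difference missed the threshold without WT shMBD6 replicate 3 (0.16, edgeR adjusted p 0.0506). The spike-in share was 0.865% to 0.874% in WT shControl and 0.39% to 0.395% in WT shMBD6 libraries. In KO libraries it was 0.361% to 0.384% with shControl and 0.319% to 0.322% with shMBD6. In WT cells, *MBD6* CPM and the spike-in share thus fell by similar proportions with shMBD6. A fall of *MBD6* in WT is therefore seen relative to the rest of the library only. In KO cells the spike-in share fell by less than *MBD6* CPM. Whether *MBD6* was lowered in each line on the spike-in scale was not tested. *TET2* (ENSG00000168769.13, hg38 chromosome 4, 105145875 to 105279816, plus strand) had 35.1, 37.8 and 33.4 CPM in WT shMBD6 and 31.3, 32.7 and 31.3 CPM in KO shMBD6. The difference of -0.16 (SE 0.0654, edgeR adjusted p 0.0549) missed the threshold, passed it in 10 of the other settings tried (DESeq2 adjusted p 0.0404, for example) and turned to 0.14 with spike-in scaling. Gene counts alone do not check the knockout, so "KO" means the libraries labelled so. Of the K-562 markers (*HBG1*, *HBG2*, *HBE1*, *HBZ*, *GATA1*, *TAL1*, *KLF1*, *TFRC* and *LMO2*), all 9 were detected, with a summed level of 3266 to 3586 CPM in WT shMBD6 and 1352 to 1354 CPM in KO shMBD6 libraries. Monocytic markers summed to 51.7 to 53.2 CPM in WT and 37.0 to 38.7 CPM in KO, with *CSF1R*, *MNDA*, *S100A8* and *S100A9* of the 8 under the filter. Lymphoid markers summed to 2.74 to 4.20 CPM in WT and 5.45 to 5.73 CPM in KO, with *CD2*, *CD79A*, *LCK* and *MS4A1* of the 7 under the filter. Fibroblast and epithelial markers summed to 1270 to 1297 CPM in WT and 1031 to 1077 CPM in KO, of which *KRT8* (838 and 606 CPM) and *KRT18* (399 and 388 CPM) made up most. The part of these marker levels in the results below was not tested.

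With shMBD6 in both lines, 7985 of 17936 genes differed between KO and WT cells, which is 44.5% of those tested. There were 4111 genes higher in KO (22.9%) and 3874 lower (21.6%). With spike-in scaling 10747 genes were called, 9700 higher and 1047 lower. Most differences were small. At least 2-fold, 1793 genes were called (10.0%), of which 1231 were higher (6.86%) and the rest lower (3.13%). Without any test, the KO shMBD6 and WT shMBD6 libraries did not overlap for 9501 genes (53.0%).

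The genes that were lower in KO by the most, among protein-coding genes with a mean of at least 5 CPM in the higher group, were led by *PTPRC* (ENSG00000081237.19, hg38 chromosome 1, 198638457 to 198757476, plus strand), which encodes CD45, the receptor phosphatase found on nucleated blood cells. It had 262, 272 and 266 CPM in WT shMBD6 and 0.646, 0.462 and 0.279 CPM in KO shMBD6 libraries, from 8817 to 10015 counts down to 10 to 24 counts a library. The difference was -9.15 (SE 0.113, edgeR adjusted p 9.24e-23). *CTAG2*, a cancer-testis antigen at the end of the long arm of X, went from 28.1, 27.1 and 31.8 CPM in WT to 0.162, 0.215 and 0.0837 CPM in KO (-7.54, SE 0.196). *ROBO1*, a receptor for the guidance cue SLIT, had 27.0, 23.9 and 23.5 CPM in WT and 0.323, 0.215 and 0.139 CPM in KO (-6.74, SE 0.173). Both were under 0.5 CPM in all 3 KO libraries. Others in this direction were *B3GALNT1* (-6.69), the globoside synthase of the P blood group system, *CIBAR1* (-6.08), *MAEL* (-5.80), a germline factor of transposon silencing, *CTLA4* (-5.57), a T cell checkpoint receptor, *RBMS1* (-5.25), an RNA-binding protein, and *EPSTI1* (-4.17), an interferon-inducible gene. Each had a mean of 5.20 to 10.2 CPM in WT shMBD6 and of 0.0939 to 0.386 CPM in KO shMBD6, and every WT library was above every KO library.

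In the other direction, *ZPLD1* (ENSG00000170044.8, hg38 chromosome 3, 102099244 to 102479841, plus strand), which encodes a zona pellucida-like domain protein, had 0 counts in all 3 WT shMBD6 libraries and 290, 254 and 274 counts in the KO shMBD6 libraries, or 7.81, 7.82 and 7.64 CPM. Against a floor of 3 counts over the WT group it was at least 271-fold higher in KO. *MYH2* (ENSG00000125414.18, hg38 chromosome 17, 10521148 to 10549700, minus strand), a fast skeletal muscle myosin heavy chain, had 1 count in each WT library and 11.8, 11.5 and 12.99 CPM in KO, a ratio of 423 with a 95% counting interval of 144 to 2050. Both genes were practically silent in WT cells. *ARHGAP15* (ENSG00000075884.13, hg38 chromosome 2, 143091362 to 143768352, plus strand), a GTPase-activating protein for RAC, had 0.268, 0.977 and 0.667 CPM in WT and 40.1, 41.01 and 49.9 CPM in KO (6.07, SE 0.169, edgeR adjusted p 8.97e-17). *DACH1*, a transcriptional cofactor of progenitor cells, had 0.149, 0.136 and 0.0580 CPM in WT and 13.6, 11.9 and 11.5 CPM in KO (6.71, SE 0.213). *CYB5A*, cytochrome b5, an electron donor of lipid and steroid metabolism, had 0.119, 0.0814 and 0.319 CPM in WT and 17.5, 16.3 and 14.4 CPM in KO (6.52, SE 0.245). For these genes too, the lowest KO library lay far above the highest WT library. The other genes of this group were *ANKFN1* (6.96), *AVPR1A* (6.92), a vasopressin receptor, *ABCB4* (5.97), a phospholipid transporter, *PDGFD* (5.93), a platelet-derived growth factor, and *GRID1* (5.89), a glutamate receptor subunit. Their WT levels rest on 6 to 17 counts over the 3 libraries, so their fitted differences are coarse. All of these genes, in both directions, were also called in the same direction with shControl, for example *PTPRC* by -7.67 and *CYB5A* by 9.36, while *MYH2* reached a mean of only 0.380 CPM in KO shControl.

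**Figure D1:**
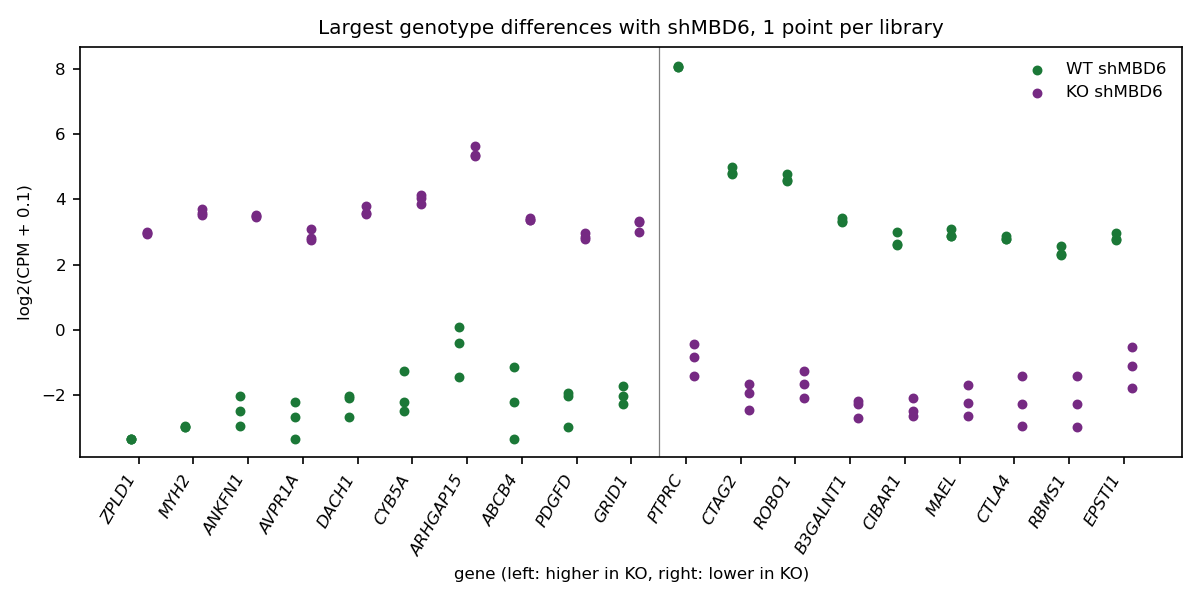
Of the protein-coding genes with the largest genotype differences with shMBD6, 10 higher and 9 lower in KO are shown on the y axis as log2(CPM + 0.1), with 1 green point for each WT shMBD6 library and 1 purple point for each KO shMBD6 library. Points of the 2 genotypes do not overlap for any of them, *ZPLD1* lies at 0 CPM in WT, and the genes on the right lie under 1 CPM in every KO library.

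The promoter sequences of 5 of these genes are printed because TET2 oxidises methylated cytosine and most DNA methylation falls on CpG (the letters CG). For MBD6 the paper reports binding to m5C in RNA and not to DNA. They were read from hg38 as the 250 bases before the start of the canonical GENCODE transcript, 5′ to 3′ on the strand of the gene, with each CG in capitals. *ZPLD1* (chr3:102434765-102435014, plus strand), *PTPRC* (chr1:198638790-198639039, plus strand) and *MYH2* (chr17:10549659-10549908, minus strand) hold few CG, while *B3GALNT1* (chr3:161105350-161105599, minus strand) and *GRID1* (chr10:86366796-86367045, minus strand) hold many.
ZPLD1: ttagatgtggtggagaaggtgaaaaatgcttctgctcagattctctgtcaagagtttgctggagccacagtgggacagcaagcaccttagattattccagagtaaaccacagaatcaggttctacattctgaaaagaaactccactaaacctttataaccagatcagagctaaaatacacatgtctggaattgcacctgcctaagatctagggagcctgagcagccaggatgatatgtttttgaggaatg
PTPRC: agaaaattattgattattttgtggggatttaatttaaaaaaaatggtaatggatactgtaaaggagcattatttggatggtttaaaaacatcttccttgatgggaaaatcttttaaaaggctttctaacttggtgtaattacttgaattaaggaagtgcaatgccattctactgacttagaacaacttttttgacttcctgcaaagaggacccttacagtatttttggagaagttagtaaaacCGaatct
MYH2: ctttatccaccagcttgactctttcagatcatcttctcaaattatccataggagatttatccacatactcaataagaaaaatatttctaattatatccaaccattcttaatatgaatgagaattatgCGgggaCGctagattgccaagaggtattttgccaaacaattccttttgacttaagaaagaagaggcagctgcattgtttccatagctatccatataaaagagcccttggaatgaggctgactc
B3GALNT1: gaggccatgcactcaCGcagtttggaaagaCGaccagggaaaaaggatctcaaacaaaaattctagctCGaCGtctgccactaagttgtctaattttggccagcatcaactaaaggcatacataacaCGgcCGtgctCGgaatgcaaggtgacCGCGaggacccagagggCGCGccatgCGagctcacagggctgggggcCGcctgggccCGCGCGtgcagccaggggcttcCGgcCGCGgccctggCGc
GRID1: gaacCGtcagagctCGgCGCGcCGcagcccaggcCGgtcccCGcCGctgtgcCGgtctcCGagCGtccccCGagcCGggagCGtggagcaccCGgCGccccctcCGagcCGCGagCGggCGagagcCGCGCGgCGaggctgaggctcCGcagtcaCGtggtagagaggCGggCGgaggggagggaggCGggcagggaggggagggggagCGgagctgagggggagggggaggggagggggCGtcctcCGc

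These windows hold 0, 1, 2, 20 and 33 CG, in the order printed. CG reads the same on both strands. Over the 13090 protein-coding genes tested with a window, 99.3% hold at least 1 CG, the median is 21 and 7.57% hold fewer than 5. Among the 801 genes at least 2-fold higher in KO with shMBD6 the median was 13, and 25.7% held fewer than 5. The 384 genes at least 2-fold lower had a median of 17, with 16.1% under 5. Low CG goes with low expression, so the counts were also taken among genes with at least 5 CPM in the higher genotype. There, 23.6% of 297 genes at least 2-fold higher and 13.9% of 144 genes at least 2-fold lower had fewer than 5 CG, against 2.09% of 4298 genes that were not called. Of all 10017 genes at that level, 3.82% had fewer than 5. These shares were not tested, and the classes were not matched on expression beyond the minimum of 5 CPM. DNA methylation was not measured in these libraries.

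A stricter class was defined after the values had been seen. It holds 35 protein-coding genes with a mean under 0.5 CPM in one genotype and at least 5 CPM in the other with shMBD6, 23 near 0 in WT and 12 near 0 in KO. All 35 were also called in the same direction with shControl, where 42.8% of all genes were called in either direction. Those libraries were not used to define the class, but they come from the same lines and the same fit. They are therefore not an independent replication. Those near 0 in WT included *SLC18A2* (0.386 and 19.2 CPM in WT and KO shMBD6), the vesicular monoamine transporter, *HDC* (0.199 and 6.07 CPM), the histamine-forming enzyme, *TGFBR2* (0.458 and 10.3 CPM), a TGF-beta receptor, and *ABCB1* (0.494 and 5.16 CPM), the multidrug efflux pump. *TP73* (7.23 and 0.424 CPM), a relative of the tumour suppressor p53, was among those near 0 in KO. Both classes mix CG-poor and CG-rich promoters, with medians of 12 and 19 CG.

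Which genotype differences remained was read by setting the shMBD6 comparison beside the same comparison with shControl, which shares no library with it. With shControl, 7683 genes differed (42.8%), and 4593 genes (25.6% of those tested) were called with both hairpins in the same direction. Among genes higher in KO, the 2465 shared genes were 60% of the calls with shMBD6 and 62% of those with shControl. For lower genes, the 2128 shared genes were 54.9% and 57.4%. With shControl, 10.4% of genes were called at 2-fold or more, 7.10% higher and 3.28% lower. At least 2-fold in both, 749 genes were higher (60.8% and 58.8%) and 307 lower (54.6% and 52.2%). With spike-in scaling the shared count was 9722, of which 9535 were higher and 187 lower. Over all 17936 genes the differences with the 2 hairpins had a Pearson r of 0.73 and a Spearman rho of 0.53, which describes genes of the same lines and not independent replicates.

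The interaction term, the difference with shMBD6 minus that with shControl, tests whether a genotype difference itself depended on the hairpin. It passed for 3820 genes (21.3%), 1840 with a positive term (10.3%) and 1980 with a negative one (11.0%), and at 2-fold or more for 575 (3.21%). With spike-in scaling it passed for 13321 genes, 56 positive and 13265 negative. On that scale the median of all genes was 1.26 with shControl and -0.95 for the interaction, so the directions with shControl and the signs of interaction terms given for genes and lists below hold relative to the median gene. Of the 4593 shared genes, 1075 passed it, 599 with a smaller difference under shMBD6 and 476 with a larger one. Calls with shMBD6 only numbered 2948, of which 1128 passed the interaction. Calls with shControl only numbered 2646, of which 1096 passed. A further 444 genes were called in opposite directions. For most genes called with 1 hairpin, therefore, the difference between hairpins was itself not called.

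**Figure D2:**
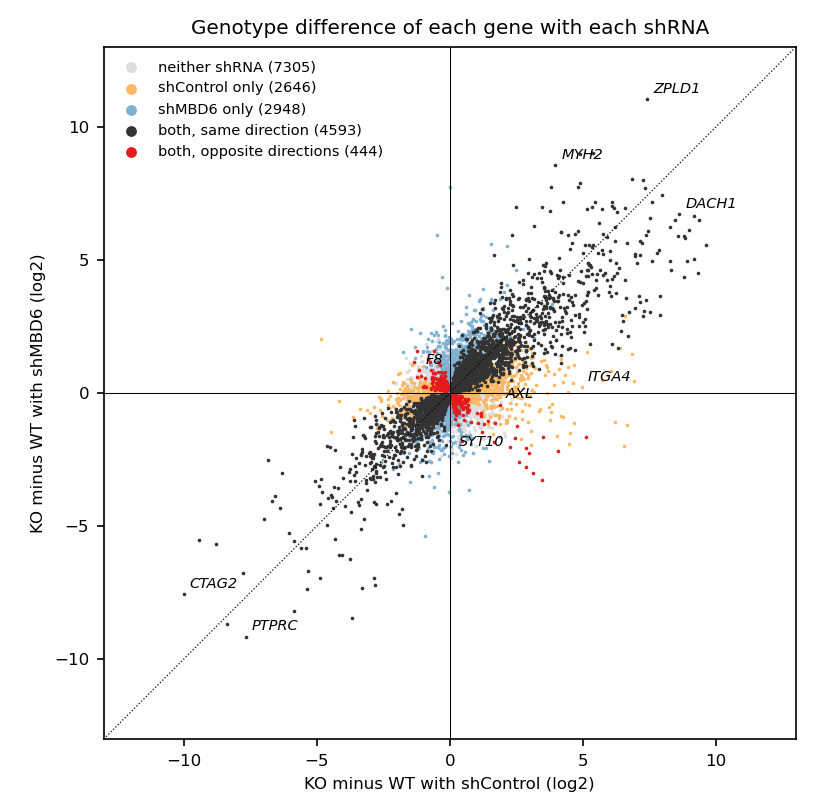
Each point is 1 of the 17936 genes, with its log2 difference of KO minus WT with shControl on the x axis and with shMBD6 on the y axis, coloured by the hairpins with which it was called. The 4593 black points (called with both, same direction) follow the dotted line of equal differences, *PTPRC* and *CTAG2* lie far down in both, and the 444 red points lie in the quadrants of opposite sign.

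The counts of every list below are to be read beside all genes tested, of which 22.9% were higher and 21.6% lower with shMBD6 under TMM scaling. With shControl these shares were 22.2% and 20.7%. Erythroid genes were lower in KO. Of 9 globin genes tested of 11 listed (*AHSP*, the alpha-globin chaperone, included), 7 were lower and 0 higher, with a median difference of -1.97 against 0.01 over all genes. The same 7 were lower with shControl, where the median was -1.23. With shMBD6 the counts were 0 higher and 6 lower with a median of -1.67 under spike-in scaling, and with shControl 2 were higher and 3 lower on that scale (median 0.03, against 1.26 over all genes). *HBG2*, a fetal gamma-globin, had 2186, 2433 and 2135 CPM in WT shMBD6 and 559, 559 and 555 CPM in KO shMBD6 (-2.01, SE 0.0418, edgeR adjusted p 6.37e-19). *HBZ*, the embryonic alpha-like globin, had 170.1, 176 and 162 and 45.2, 45.2 and 39.2 CPM (-1.97, SE 0.0627), and *HBA1* had 153, 164 and 156 and 36.5, 36.1 and 36.2 CPM (-2.12, SE 0.0559). The globin groups were far apart in every library. *HBE1* (-1.20) and *HBD* (-0.39) were under 1 CPM and not called. *HBG2*, *HBZ*, *HBA1* and *HBA2* had negative interaction terms (-0.32, -0.50, -0.89 and -1.29), so their genotype difference was larger with shMBD6, while that of *AHSP* was smaller (1.34). Gamma-globins, alpha-globins and glycophorins have near-identical copies and reads without a unique alignment were left out of the gene counts, so the split within each pair is uncertain. In such bulk libraries fewer cells of a type and less RNA per cell cannot be told apart.

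Of 19 red cell membrane genes tested (20 listed), 13 were lower in KO and 2 higher, with a median of -0.53 (5 higher and 10 lower with a median of -0.23 under spike-in scaling). *SLC4A1*, the anion exchanger band 3, had 23.1, 21.3 and 23.6 CPM in WT and 1.56, 3.02 and 2.71 CPM in KO shMBD6 (-3.23, SE 0.144, edgeR adjusted p 1.56e-13) and differed by -2.87 with shControl (interaction edgeR adjusted p 0.264). For other members the difference depended on the hairpin. *SPTB*, erythroid beta-spectrin, had 119, 115 and 119 CPM in WT shMBD6 and 84.6, 73.0 and 69.2 CPM in KO shMBD6 (-0.64, SE 0.0554), beside means of 126 CPM in WT shControl and 153 CPM in KO shControl (interaction -0.93, edgeR adjusted p 4.62e-08). *ANK1*, the ankyrin that ties band 3 to spectrin, had 325, 326 and 319.6 and 230.3, 221 and 219 CPM and differences of -0.53 with shMBD6 and -0.09 with shControl. In all, 10 of the 19 had a negative interaction term, against 11.0% of all genes, among them *GYPB*, *GYPE*, *XK*, *ERMAP* and *RHAG* (-1.34 to -0.29) and *BCAM* (-0.80). The 2 higher genes were *BCAM*, the Lutheran antigen (2.68 and 4.76 CPM), and *CD36*, a scavenger receptor, at 0 counts in WT and 43 counts over the KO libraries (at least 14.3-fold higher).

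Haem and iron genes were split. Of 21 tested (22 listed), 11 were lower and 5 higher in KO, with a median of -0.12 (10 higher and 6 lower with a median of 0.17 under spike-in scaling). Without KO shMBD6 replicate 3, 13 were lower and the median was -0.23. The lower ones included enzymes of haem synthesis, *UROD* (562.3 and 347 CPM in WT and KO shMBD6, -0.70), *CPOX* (-0.66) and the erythroid *ALAS2* (156 and 111 CPM, -0.49), while *ALAD* (0.54) and the ubiquitous *ALAS1* (0.31) were higher. *TFRC*, the transferrin receptor, was higher in KO with shControl (0.56) and had 282 and 283 CPM with shMBD6 (0.00, edgeR adjusted p 0.935), with an interaction term of -0.56 (edgeR adjusted p 7.08e-09).

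Of 23 haematopoietic transcription factors tested (28 listed), 15 were lower in KO and 6 higher, with a median of -0.25 (10 higher and 7 lower with a median of 0.06 under spike-in scaling), and 13 of the 15 were also lower with shControl. *KLF1*, an activator of globin genes, had 119, 119 and 121 CPM in WT and 73.4, 78.7 and 75.4 CPM in KO (-0.66, SE 0.0402). *LMO2* (-0.97), *GFI1B* (-0.62), *ZFPM1* (-0.56), *TAL1* (-0.51) and *GATA1* (-0.28), which act with KLF1 in erythroid cells, were lower as well. *MYC* was lower with shMBD6 (239.6 and 202 CPM, -0.24) and higher with shControl (0.16). *GFI1*, a repressor of myeloid and stem cells, was higher, with 1.82, 1.22 and 1.48 CPM in WT and 5.65, 5.36 and 5.61 CPM in KO (1.88, SE 0.164), and *LYL1* (0.56), *IKZF1* (0.38) and *MYB* (0.29) were higher too. *IKZF2* (-1.86) and *BACH2* (-1.07), known best from lymphoid cells, were lower. Of 10 megakaryocyte and platelet genes tested (21 listed), 6 were lower and 2 higher (median -0.44, and 2 higher and 4 lower with a median of -0.14 under spike-in scaling), among them *TUBB1*, platelet beta-tubulin (24.6 and 7.49 CPM, -1.71), and *ITGA2B*, integrin alpha-IIb (67.0 and 52.0 CPM, -0.36).

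Lists of other blood lineages held both directions. Of 12 granulocyte and monocyte genes tested (22 listed), 6 were higher and 1 lower (median 0.65, and 7 higher and 1 lower with a median of 0.95 under spike-in scaling), and 5 of the 6 were also higher with shControl. *TCN1*, a vitamin B12 carrier of neutrophil granules, had 35.0, 34.1 and 33.8 CPM in WT and 246, 248 and 278 CPM in KO shMBD6 (2.91, SE 0.0537, edgeR adjusted p 7.92e-20), and its difference was larger with shMBD6 (interaction 1.14). *CD33* (47.2 and 72.8 CPM, 0.63) and *ITGAM* (1.41 and 4.09 CPM, 1.53), myeloid surface proteins, were higher, and *LYZ*, lysozyme, was lower (50.4 and 32.9 CPM, -0.61). Without the filter on low counts, 6 of 21 members were higher, beside 3887 of the 38911 genes tested in that setting. The list median there was 0.05. The summed level of the monocytic markers, given above, was lower in KO. Of 14 lymphoid and leukocyte genes tested (26 listed), 7 were higher and *PTPRC* alone was lower (median 0.52, and 11 higher and 1 lower with a median of 0.81 under spike-in scaling). *LCP1*, the leukocyte actin bundler L-plastin, had 446, 451 and 439 CPM in WT and 801, 802 and 806 CPM in KO (0.85, SE 0.0263), and *IKZF3* had 1.09 and 6.93 CPM (2.66). *CD3E* (0.170 and 0.407 CPM) and *PAX5* (0.284 and 0.593 CPM) stayed under 1 CPM. Among 23 cytokine receptors and JAK-STAT genes tested (26 listed), 4 were higher and 10 lower (median -0.12, and 14 higher and 3 lower with a median of 0.18 under spike-in scaling). *KIT*, the stem cell factor receptor, had 1.28, 1.63 and 1.39 CPM in WT and 17.4, 17.1 and 18.2 CPM in KO (3.61, SE 0.127), while *EPOR*, the erythropoietin receptor, had 18.1 and 11.3 CPM (-0.68). *STAT5A* was higher (0.45) and *STAT3* (-0.27), *JAK1* (-0.35) and *JAK2* (-0.51) lower.

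**Figure D3:**
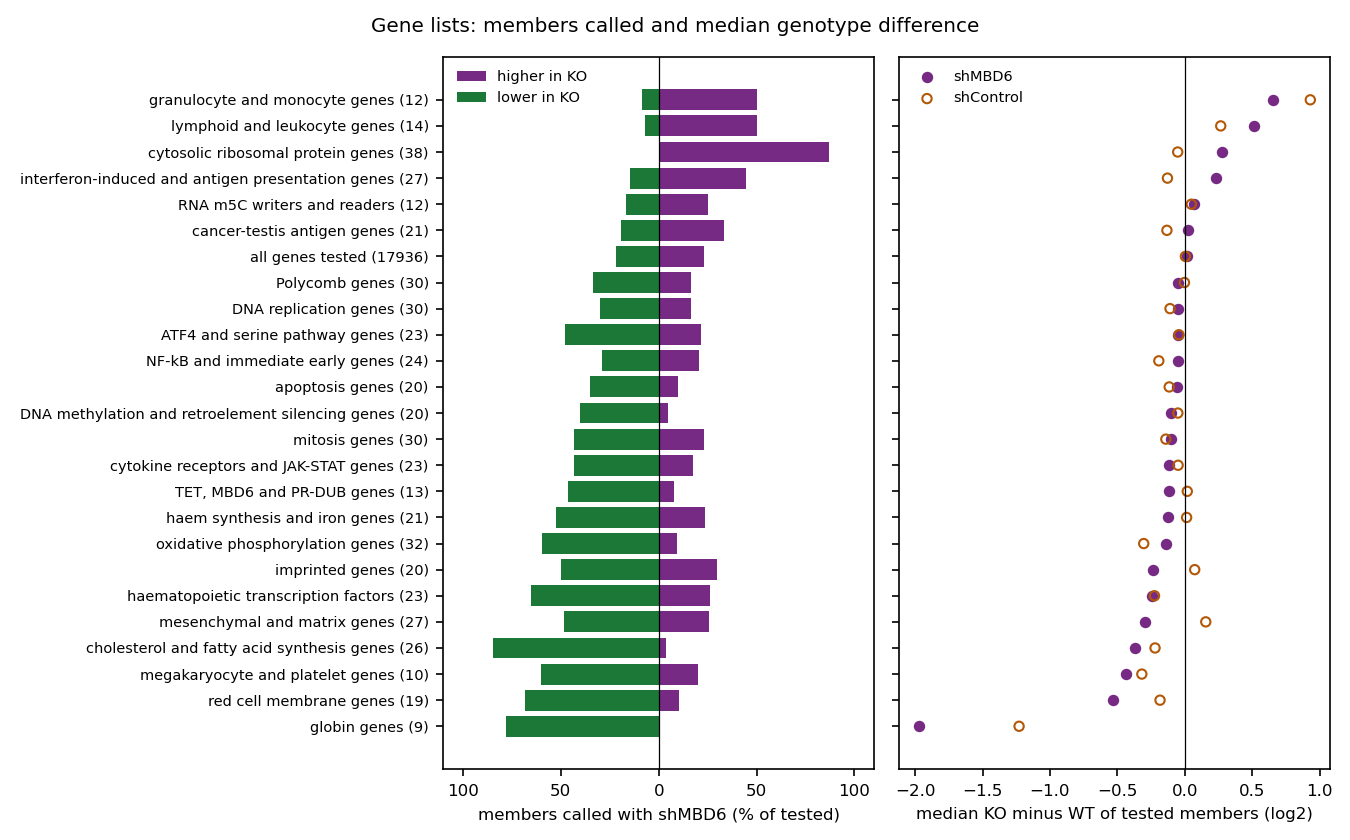
For each gene list (number of tested members in parentheses, with all genes as a reference), the left panel shows the percentage of members called higher (purple, to the right) or lower (green, to the left) in KO with shMBD6, and the right panel the median log2 difference with shMBD6 (filled) and shControl (open). Globin genes lie lowest at -1.97 with shMBD6, and the ribosomal protein list lies at -0.05 with shControl and 0.27 with shMBD6, all with TMM scaling (1.21 and 0.57 with spike-in scaling).

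Most sterol synthesis genes were lower. Of 26 cholesterol and fatty acid synthesis genes, 22 were lower in KO with shMBD6 and 1, *SREBF1*, was higher, with a median of -0.37. Of the 22, 18 were also lower with shControl (median -0.22), and 15 of the 26 had a negative interaction term, against 11.0% of all genes. *MSMO1*, a sterol demethylating oxidase, had 61.8, 64.8 and 63.7 CPM in WT and 28.5, 32.8 and 30.0 CPM in KO (-1.06, SE 0.0583, edgeR adjusted p 4.52e-12). *SREBF2*, the transcription factor that drives the pathway, had 301, 298 and 295 and 223, 224 and 226 CPM (-0.41, SE 0.0354) and differed by -0.10 with shControl. The groups did not overlap for either gene. *ACACA* (-0.05) was not called. The list's counts were 8 higher and 12 lower with a median of -0.07 under spike-in scaling, and the call of *SREBF1* was lost without 1 of 5 libraries, among them KO shMBD6 replicate 3.

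Cytosolic ribosomal protein genes were higher relative to the median gene with shMBD6. Of 38 tested (39 listed), 33 were higher in KO and 0 lower with shMBD6 (median 0.27, and 38 higher and 0 lower with a median of 0.57 under spike-in scaling), against 5 higher and 14 lower with shControl (median -0.05), and 34 had a positive interaction term, against 10.3% of all genes. With spike-in scaling all 38 were also higher with shControl, by a larger median of 1.21, and 36 had a negative interaction term (median -0.61, against -0.95 over all genes), so the sign of the interaction depends on the scaling. *RPS27* had 504, 429 and 537 CPM in WT shMBD6 and 739, 760.4 and 792 CPM in KO shMBD6 (0.64, SE 0.0594), against -0.20 with shControl. *RPL37* had 570.0, 465 and 600.4 and 1003, 970.3 and 1060.0 CPM (0.89, SE 0.0624). Several members have processed pseudogenes with near-identical sequence, which the counting may split. The difference varied among members, from -0.03 for *RPL35* to 0.98 for *RPLP1*. Transcript length moved with the interaction over all genes. For the 769 protein-coding genes with canonical transcripts under 1000 bases that are not in the list, the median difference was 0.04 with shMBD6 and -0.21 with shControl, giving 257 positive and 14 negative interaction terms (median 0.25). For transcripts of at least 5000 bases the medians were -0.05 and 0.05, with 193 positive and 881 negative terms. The 38 ribosomal protein genes had a median transcript length of 1122.5 bases (295 to 7573), so many of them are not under 1000 bases. Their median interaction term was 0.351. In the length class that starts at 1000 bases, 2416 genes (list members included) had a smaller median term of 0.105, with 469 positive and 131 negative. The part of transcript length in the ribosomal protein result was not tested. With shMBD6 alone the medians by length were within -0.05 to 0.05.

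Oxidative phosphorylation genes were mostly lower, 19 of 32 with shMBD6 (3 higher, median -0.14) and 27 with shControl (2 higher, median -0.31). With shMBD6 the counts were 24 higher and 1 lower with a median of 0.16 under spike-in scaling. *ATP5F1B*, the catalytic subunit of ATP synthase, had 803, 824 and 810.3 CPM in WT and 696, 681 and 685 CPM in KO (-0.24, SE 0.0267). *COX5B* went the other way with shMBD6 (207 and 308 CPM, 0.57) and was lower with shControl (-0.32). Of 30 DNA replication genes, 9 were lower and 5 higher (median -0.05, and 25 higher and 0 lower with a median of 0.25 under spike-in scaling), with *MCM6* (-0.30) and *MCM5* (-0.27) lower and *MCM7* (0.47) higher among the helicase subunits. Of 30 mitosis genes, 13 were lower and 7 higher (median -0.10, and 21 higher and 1 lower with a median of 0.20 under spike-in scaling). *CENPE*, a kinetochore motor, had 214 and 157 CPM (-0.45), and *PLK1*, a mitotic kinase, 227 and 184 CPM (-0.30). Of the 7 higher mitosis genes, *BUB1B*, *CCNB2*, *KIF23* and *NUSAP1* lie on chromosome 15, whose genes as a group were higher in KO. Of the 5 higher replication genes, *MCM7* and *RFC2* lie on chromosome 7, whose genes had a median of 0.16. All differences of the replication list were under 2-fold. The counts of that list lay near the shares of all genes, 22.9% higher and 21.6% lower.

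The remaining stress and signalling lists held modest differences. Of all genes, 22.9% were higher and 21.6% lower, and the NF-kB and immediate early list lay near those shares. Of 23 ATF4 and serine pathway genes, 11 were lower and 5 higher (median -0.05, and 17 higher and 3 lower with a median of 0.25 under spike-in scaling), with 7 lower without WT shMBD6 replicate 2. *PHGDH*, the first enzyme of serine synthesis, had 1093, 1085 and 1099 CPM in WT and 761.6, 714 and 736 CPM in KO (-0.57, SE 0.0294) and the same difference with shControl (-0.56). Of 24 NF-kB and immediate early genes tested (26 listed), 7 were lower and 5 higher (median -0.05, and 11 higher and 2 lower with a median of 0.25 under spike-in scaling), with 3 higher without WT shMBD6 replicate 3 or KO shMBD6 replicate 3. *EGR1* had 58.2 and 43.6 CPM (-0.42), a smaller difference than with shControl (-1.32, interaction edgeR adjusted p 2.5e-07), and *RELB* was higher (1.71 and 3.10 CPM, 0.85). Of 20 apoptosis genes tested (22 listed), 7 were lower and 2 higher (median -0.06, and 13 higher and 0 lower with a median of 0.24 under spike-in scaling, and 1 higher without WT shMBD6 replicate 1), with *MCL1* (-0.23) and *CYCS* (-0.29) lower.

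Interferon-induced and antigen presentation genes had more members higher than lower with shMBD6 and, with TMM scaling only, the reverse with shControl. Of 27 tested (34 listed), 12 were higher and 4 lower in KO with shMBD6 (median 0.23, and 16 higher and 3 lower with a median of 0.53 under spike-in scaling), against 7 higher and 11 lower with shControl (median -0.13), and 11 had a positive interaction term and 0 a negative one, against 10.3% and 11.0% of all genes. With spike-in scaling 21 were higher and 2 lower with shControl (median 1.13), and 13 had a negative interaction term and 0 a positive one (median -0.40). The median of 0.23 with shMBD6 was 0.14 without WT shMBD6 replicate 3. *IFITM2* had 19.8, 22.7 and 23.4 CPM in WT and 95.5, 96.3 and 93.1 CPM in KO (2.11, SE 0.0598), and *IFIT3* 1.67, 0.814 and 1.22 and 6.70, 6.37 and 6.44 CPM (2.41, SE 0.254). Both belong to antiviral families induced by interferon, and both were also higher with shControl (2.00 and 1.83). *ISG15*, a ubiquitin-like modifier, was lower in KO with shControl (-1.17) and had 13.3, 13.2 and 11.8 and 12.3, 11.4 and 12.2 CPM with shMBD6 (-0.09, edgeR adjusted p 0.371). *HLA-B* (2.82 and 0.214 CPM, -3.72) and *PSMB8* (6.30 and 1.29 CPM, -2.29), of antigen presentation, were lower with both hairpins, while *B2M* was higher with shMBD6 (53.3 and 76.0 CPM, 0.51).

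Mesenchymal and matrix genes had more members lower than higher with shMBD6 under TMM scaling. Of 27 tested (31 listed), 13 were lower and 7 higher in KO with shMBD6 (median -0.29, and 11 higher and 7 lower with a median of 0.01 under spike-in scaling), against 4 lower and 9 higher with shControl (median 0.16), and 11 had a negative interaction term, against 11.0% of all genes. With spike-in scaling 26 were higher and 0 lower with shControl (median 1.41). *VIM*, vimentin, was higher with both hairpins, with 891, 919 and 905 CPM in WT and 1648, 1659.7 and 1633 CPM in KO shMBD6 (0.86, SE 0.0242). *SPARC*, a matrix glycoprotein, was too (32.1, 30.4 and 31.5 and 109, 116 and 104.7 CPM, 1.81, SE 0.0527). *ANXA1*, annexin A1 (517 and 301 CPM, -0.78), and *TIMP1*, a metalloproteinase inhibitor (249 and 149.6 CPM, -0.73), were lower with both. *FN1*, *AXL*, *CD44* and *LAMB1* depended on the hairpin and are described with the interaction genes.

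Of 21 cancer-testis antigen genes tested (28 listed), 7 were higher and 4 lower (median 0.02, and 13 higher and 2 lower with a median of 0.32 under spike-in scaling), and 10 had a positive interaction term and 0 a negative one, against 10.3% and 11.0% of all genes. With spike-in scaling 0 had a positive and 16 a negative term (median -0.62, against -0.95 over all genes). *CTAG2* and the *MAGEA* genes of the list lie at the end of the long arm of X. There, 86 of 127 protein-coding genes had a positive term with TMM scaling. The list was not counted without that region. *SSX1* had 59.4, 59.1 and 60.3 CPM in WT and 247, 244 and 248 CPM in KO (2.05, SE 0.0419) and *MAGEA1* means of 16.0 and 84.9 CPM (2.40, SE 0.0734), each also higher with shControl (2.11 and 1.97). *TKTL1*, a transketolase-like gene, was lower (42.9 and 6.42 CPM, -2.73). *MAGEA3*, *MAGEA6* and *MAGEA12*, near-identical copies whose separate values are uncertain, were lower with shControl (-0.80, -0.89 and -0.75) and had differences of -0.13, -0.29 and -0.07 with shMBD6, of which that of *MAGEA6* alone was called. Of 20 imprinted genes tested (25 listed), which are expressed from 1 parental allele under DNA methylation, 10 were lower and 6 higher (median -0.23, and 9 higher and 6 lower with a median of 0.07 under spike-in scaling). Without KO shMBD6 replicate 2 the median was -0.13. *DLK1* had 221, 227 and 213 CPM in WT shMBD6 and 132, 130.3 and 142 CPM in KO shMBD6 (-0.71, SE 0.0407) against a shControl difference of 0.17. *MEG3*, its noncoding neighbour on chromosome 14, had 62 counts over the WT shMBD6 and 26 over the KO shMBD6 libraries (-1.25) and differed by 2.54 with shControl. *KCNQ1OT1*, a noncoding RNA of the Beckwith-Wiedemann locus (45.5 and 28.0 CPM, -0.70), and *ZDBF2* (4.88 and 0.678 CPM, -2.85) were lower. Of the 6 higher imprinted genes, *SNHG14* (0.332 and 4.89 CPM, 3.86), *SNRPN*, *NDN* and *MKRN3* lie together in the Prader-Willi region of chromosome 15.

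Regulators tied to TET2 and MBD6 differed by less than 2-fold. The Polycomb and RNA m5C lists lay not far from the shares of all genes, 22.9% higher and 21.6% lower. Of 13 TET, MBD6 and PR-DUB genes tested (14 listed), 6 were lower and *MBD6* alone higher (median -0.12, and 8 higher and 3 lower with a median of 0.18 under spike-in scaling). *TET1* had 68.5, 72.6 and 66.6 CPM in WT and 41.8, 40.6 and 43.1 CPM in KO (-0.73, SE 0.0502, edgeR adjusted p 1.88e-10), and *TET3* 92.8, 96.6 and 94.3 and 69.9, 70.2 and 68.9 CPM (-0.44, SE 0.0439). The TET relatives were thus below WT in every KO shMBD6 library, whereas with shControl they differed by 0.09 and -0.16. *BAP1*, the catalytic subunit of PR-DUB, had 78.7, 80.2 and 76.8 CPM in WT and 81.4, 83.9 and 76.1 CPM in KO (0.03, edgeR adjusted p 0.578), and its partner *ASXL1* 119 and 117 CPM (-0.03, edgeR adjusted p 0.508). *DNMT3A*, a de novo DNA methyltransferase, had 38.7, 39.4 and 42.0 and 23.2, 22.4 and 22.03 CPM (-0.83, SE 0.0608), against -0.08 with shControl (interaction edgeR adjusted p 2.35e-06). Of 20 genes of DNA methylation and retroelement silencing, 8 were lower and 1, *HELLS*, was higher (median -0.10, and 16 higher and 1 lower with a median of 0.20 under spike-in scaling), and *HELLS* was not called without KO shMBD6 replicate 3. Besides *DNMT3A*, the lower ones lay between -0.37 and -0.11. Of 30 Polycomb genes, 10 were lower and 5 higher (median -0.05, and 20 higher and 0 lower with a median of 0.25 under spike-in scaling), from -0.37 for *PCGF3* to 0.37 for *CBX8*, so none reached 2-fold. *EZH2*, the methyltransferase of PRC2, had 237 and 214 CPM (-0.15). Of 12 RNA m5C writers and readers, 3 were higher and 2 lower (median 0.07, and 8 higher and 0 lower with a median of 0.37 under spike-in scaling), and the median was -0.02 without WT shMBD6 replicate 2. *NSUN2*, the main mRNA m5C writer, had 111, 109 and 105.4 CPM in WT and 121, 122 and 123 CPM in KO (0.17, SE 0.0353), *ALYREF* was higher (0.22) and *YBX1* lower (-0.13), both m5C readers.

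Among genes that differed with shMBD6 and not with shControl, and whose interaction passed, *SYT10* (a synaptotagmin), *H19*, *CDHR1* (a protocadherin) and *CD44* had among the most negative terms. *H19*, an imprinted noncoding RNA, had 6.25, 5.54 and 4.99 CPM in WT shMBD6 and 1.16, 1.45 and 1.20 CPM in KO shMBD6, beside means of 0.558 and 0.452 CPM in WT and KO shControl (interaction -1.84, SE 0.440, edgeR adjusted p 0.00455). *CD44*, the hyaluronan receptor, had 11.5, 10.6 and 11.3 and 4.85, 4.96 and 5.08 CPM with shMBD6 and means of 1.88 and 2.12 CPM with shControl (interaction -1.35, SE 0.225). Both genes had higher means with shMBD6 than with shControl in either genotype, and WT shMBD6 was the highest group. *SYT10* differed in that the 2 shControl groups and WT shMBD6 lay between 4.02 and 5.11 CPM and KO shMBD6 at 1.08 CPM (interaction -2.34). *CDHR1* had a term of -1.53. In the positive direction, *VWA5A* had 18.0, 16.6 and 16.8 CPM in WT shMBD6 and 39.3, 37.6 and 52.4 CPM in KO shMBD6, beside means of 31.2 and 32.2 CPM with shControl (interaction 1.29). *ACVRL1*, a TGF-beta superfamily receptor, had 3.30, 4.45 and 3.45 and 11.6, 10.8 and 11.4 CPM (interaction 1.26), and a pseudogene (ENSG00000121388), *CFAP107* and *INSRR*, an insulin receptor relative, had terms of 1.43, 1.32 and 1.14. The call of *INSRR* was lost without WT shControl replicate 2 (0.75, edgeR adjusted p 0.114) and without KO shMBD6 replicate 1 (0.91, edgeR adjusted p 0.0548).

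Genes called in opposite directions included *AXL*, a receptor tyrosine kinase, which was higher in KO with shControl (means of 1.33 and 4.85 CPM in WT and KO) and had 9.11, 8.79 and 9.13 CPM in WT shMBD6 and 8.00, 6.03 and 5.94 CPM in KO shMBD6 (-0.43, SE 0.144, edgeR adjusted p 0.0181). *LAMB1*, the laminin beta-1 chain, had 53.9, 55.9 and 55.2 and 25.8, 23.4 and 22.7 CPM with shMBD6 (-1.20, SE 0.0613) and means of 21.8 and 26.7 CPM with shControl. *PGR*, the progesterone receptor (-1.81 with shMBD6, 0.46 with shControl), *GAL*, the galanin peptide (-0.78 and 1.17), and *RPS6KA2*, a ribosomal S6 kinase (-0.999 and 0.53), behaved alike. WT shMBD6 was the highest of the 4 groups for all 5 of these genes. With the reverse signs, *F8*, coagulation factor VIII, had 4.37, 3.15 and 2.75 CPM in WT shMBD6 and 6.06, 6.71 and 5.83 CPM in KO shMBD6 (0.86, SE 0.138), against means of 15.5 and 6.99 CPM with shControl. *RENBP*, the renin-binding protein, had 38.8, 36.1 and 40.2 and 51.7, 49.7 and 70.6 CPM, with KO replicate 3 the highest of these 6 (0.58, and -0.93 with shControl). *DYDC2* (1.17 and -0.74), *ANKRD33* (0.65 and -1.09) and *TUBA3C*, an alpha-tubulin with close copies (1.15 and -0.44), had the same signs. The highest group was WT shControl for *F8* and *RENBP*, but KO shMBD6 for *DYDC2*, *ANKRD33* and *TUBA3C*.

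A last class differed with shControl and was not called with shMBD6. *FN1*, fibronectin, had 318, 314 and 312 CPM in WT shMBD6 and 290.0, 294 and 315 CPM in KO shMBD6 (-0.07, SE 0.0341, edgeR adjusted p 0.0984), beside means of 91.5 CPM in WT shControl and 312 CPM in KO shControl (interaction -1.84, SE 0.0496, edgeR adjusted p 1.08e-15). WT shControl was the low group among the 4. *ITGA4*, integrin alpha-4, had 1.25, 2.06 and 1.94 and 1.70, 2.25 and 2.23 CPM with shMBD6 and means of 0.299 and 9.42 CPM with shControl (interaction -4.73, SE 0.335), so here KO was lower and WT higher with shMBD6 than with shControl. *BCL2*, an anti-apoptotic protein, had 2.202, 1.87 and 2.32 and 3.10, 2.34 and 2.96 CPM (0.40, edgeR adjusted p 0.0831), against a shControl difference of 2.04. *DLX4*, a homeobox gene, and *LIFR*, the receptor of leukaemia inhibitory factor, had interaction terms of -2.09 and -1.55. *SOD3*, extracellular superoxide dismutase, had 1.93, 2.42 and 1.62 and 2.72, 2.96 and 1.81 CPM with shMBD6 and means of 5.98 and 1.74 CPM with shControl (interaction 2.10, SE 0.290). *MAP3K15*, *TNXB* (tenascin X), *CACFD1* and *LAGE3* had positive terms of 1.40, 1.38, 1.25 and 1.12. *LAGE3* had 20.4, 21.0 and 42.0 CPM in KO shMBD6, so its mean rests on replicate 3. A difference that is not called does not show equal levels.

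**Figure D4:**
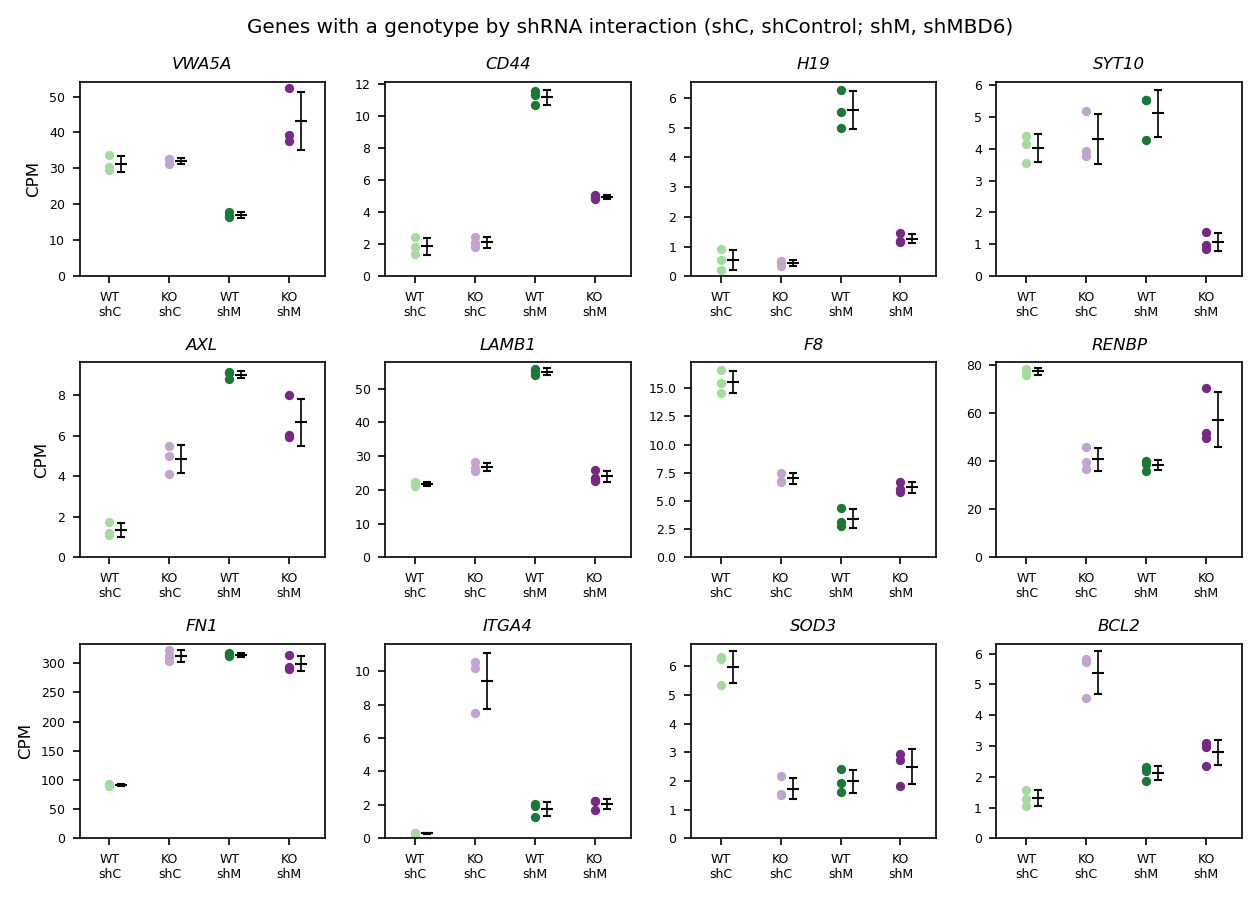
Levels in CPM (y axis, from 0, with a scale for each gene) are shown for 12 genes with an interaction, 1 point per library and a bar for the mean ± SD of 3 libraries, in WT and KO cells with shControl (shC) and shMBD6 (shM). *SYT10* is low in KO shMBD6 only, *FN1* is low in WT shControl only, and *AXL* and *LAMB1* are highest in WT shMBD6.

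The differences were not spread evenly over the genome. On chromosome 15, 333 of 417 protein-coding genes tested were higher in KO with shMBD6 (79.9%) and 13 lower (3.12%), with a median difference of 0.54 and quartiles of 0.33 and 0.76. The median with shControl was 0.56. Chromosome 8 had a median of 0.31 with either hairpin (231 higher, 59 lower of 424), and chromosome 7 of 0.16 with shMBD6 and 0.20 with shControl (276 higher, 116 lower of 602). On chromosomes 7 and 8 the higher genes lay in a part of the chromosome. In windows of 10 Mb with at least 20 genes, the medians were 0.34 to 0.36 in those of chromosome 7 between 70 and 110 Mb and -0.18 to -0.01 in those before 50 Mb, and 0.41 to 0.64 in those of chromosome 8 from 70 Mb onwards and 0.01 to 0.12 in those before 50 Mb. The whole-chromosome medians of the others lay between -0.06 and 0.03 with shMBD6, but some windows departed from these in either direction. For example, the windows of chromosome 1 from 210 Mb onwards had medians of 0.18 to 0.34. Those of chromosome 5 from 0 to 10 Mb and from 30 to 40 Mb had 0.23 and 0.27. That of chromosome 2 from 220 to 230 Mb had -0.325 (-0.064 with shControl). By library, the 288 chromosome 15 genes with at least 5 CPM in every group had a median level of 0.53 above the WT shControl mean in each KO shMBD6 library, 0.54 in each KO shControl library and 0.03 to 0.05 in the WT shMBD6 libraries. Together chromosomes 7, 8 and 15 held 840 of the 3331 protein-coding genes called higher and 142 of the 801 called higher by at least 2-fold. The libraries measure RNA only, and whether the lines differ in the dosage of these chromosomes was not tested. Members of the lists on chromosome 15, such as *RPL4* (0.58 with shMBD6, 0.56 with shControl), *COX5A* (0.78 and 0.56), *BUB1B* (0.39 and 0.49) and *B2M* (0.51 and 0.10), are to be read beside that median. Without chromosomes 7, 8 and 15, 28 of 33 ribosomal protein genes were higher and 0 lower, 3 of 26 mitosis genes higher and 13 lower, and 1 of 13 imprinted genes higher and 9 lower.

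The end of the long arm of X behaved differently with the 2 hairpins. For the 127 protein-coding genes from 130 Mb onwards, the median difference was -0.17 with shMBD6 and -0.68 with shControl, and 86 of them had a positive interaction term. By library, 89 of these genes with at least 5 CPM in every group had medians of -0.24, -0.26 and -0.22 relative to the WT shControl mean in the KO shMBD6 libraries, of -0.67, -0.67 and -0.68 in the KO shControl libraries, and of -0.07 to -0.04 in the WT shMBD6 libraries. For the 387 genes before 130 Mb the medians were -0.01 and -0.04. These pool unlike windows. The window from 0 to 10 Mb had medians of 0.299 with shMBD6 and 0.036 with shControl. The window from 110 to 120 Mb had medians of -0.066 with shMBD6 and -0.245 with shControl. That from 120 to 130 Mb had -0.166 and -0.393. *F8*, *RENBP*, *LAGE3*, *CTAG2* and the *MAGEA* genes lie in the end region, as do *NSDHL* (interaction 0.52) and *RPL10* (0.73), beside a median interaction term of 0.53 for the region. The terms of *CTAG2* (2.46, with few counts in KO), *F8* (2.01), *RENBP* (1.51) and *LAGE3* (1.12) were larger. That of *LAGE3* rests in part on replicate 3 of KO shMBD6, at 42.0 CPM beside 20.4 and 21.0 CPM in replicates 1 and 2.

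**Figure D5:**
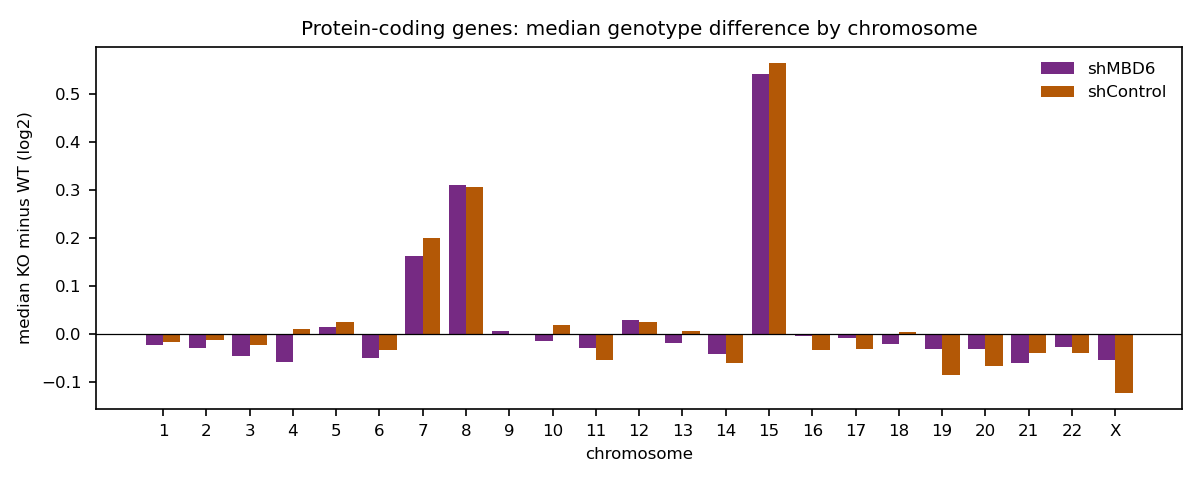
Bars show, for each chromosome (x axis), the median log2 difference of KO minus WT over its protein-coding genes (y axis, from 0) with shMBD6 (purple) and shControl (brown). Chromosomes 15, 8 and 7 stand above 0 with both hairpins, at 0.54, 0.31 and 0.16 with shMBD6.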

How the data were processed

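K-562 RNA was measured in 3 libraries of each of 4 groups (WT or *TET2* KO, with shControl or shMBD6). The authors deposited raw gene counts for each library, made after trimming (Trimmomatic 0.39) with alignment to hg38 plus ERCC sequences (HISAT2 2.2.1) and counting over GENCODE 29 (HTSeq 0.12.4). Whether counting used strand is not given in the sources used here, so antisense and overlapping genes may share reads. Reads without a unique alignment, ambiguous reads and reads outside genes were in 5 summary lines, which were kept out, as were 92 ERCC rows. In the 6 shMBD6 libraries, reads outside genes made up 10.4% to 10.7% (KO) and 11.8% to 12.1% (WT) of all reads listed. With shControl the order was the reverse, at 13.2% to 13.8% (KO) and 10.8% to 11.0% (WT). The part of this in the interaction terms was not tested. Mouse libraries of the series were not used here. Groups came from the sample titles.

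The 12 K-562 libraries were fitted together by edgeR 4.0.16 (R 4.3.3) with its low-count filter filterByExpr, TMM scaling and the quasi-likelihood test, with Benjamini-Hochberg adjustment over all 17936 genes tested. The SE is the log2 difference divided by the square root of its F value. The interaction is the genotype difference with shMBD6 minus that with shControl. Intervals of count ratios are exact and cover counting error only. In 10 simulated sets of KO shMBD6 against WT shMBD6 counts (17394 to 17430 genes, 200 of them changed 2-fold), 72.8% of the changed genes were recovered and 7.27% of all calls were false. Far more genes were called in the data, most of them by less than 2-fold. The simulated shares therefore do not carry over to the reported calls. Gene names came from GENCODE 44, which matched 58207 genes (99.1%). Promoters were read from hg38 at GENCODE 44 canonical starts.

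Named genes were chosen by size among genes with an adjusted p under 0.05, libraries that do not overlap and a mean of at least 5 CPM in the higher group. They are the 10 protein-coding genes with the largest difference in each direction with shMBD6, and the 5 largest interaction terms of each sign among genes called with shMBD6 only and among genes called in opposite directions. The 5 largest terms of each sign among protein-coding genes called with shControl only were added (there with at least 5 CPM in a shControl group), with *TET2*, *MBD6* and members of the gene lists. Some genes that these rules take are not reported here, and counts over lists include them. The members and lists were chosen with earlier results of these data known. Alternatives were DESeq2 1.42.0, its size factors, scaling to ERCC counts (the study put a spike-in factor into DESeq2's size factors, which is not the same procedure), no filter, a replicate block, each library left out, only the 6 shMBD6 libraries and other thresholds. The settings of list counts and of single interaction terms were added after seeing the data.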

Additional observations from a re-analysis of the deposited data

Results flagged for a closer look

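The genotype difference itself differed between shMBD6 and shControl for 3820 genes, by edgeR's test of the interaction term at an adjusted p under 0.05. Among the genes named above, the term was as follows, on the log2 scale. Of the genes with the largest differences, it was 4.59 for *MYH2*, 2.46 for *CTAG2*, -2.90 for *GRID1*, -2.84 for *CYB5A*, -1.93 for *CIBAR1*, -1.49 for *PTPRC*, -1.40 for *ARHGAP15* and -1.37 for *B3GALNT1*. For *MYH2*, *CYB5A*, *GRID1* and *CTAG2* the low group holds few counts, so the size of the term is coarse.

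For genes called with shMBD6 and not with shControl it was 1.43 for ENSG00000121388, 1.32 for *CFAP107*, 1.29 for *VWA5A*, 1.26 for *ACVRL1*, 1.14 for *INSRR*, -2.34 for *SYT10*, -1.84 for *H19*, -1.53 for *CDHR1* and -1.35 for *CD44*. The pseudogene ENSG00000121388 neighbours *TUBA3C* and may share reads with it.

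Opposite directions gave 2.01 for *F8*, 1.91 for *DYDC2*, 1.74 for *ANKRD33*, 1.60 for *TUBA3C*, 1.51 for *RENBP*, -2.32 for *AXL*, -2.27 for *PGR*, -1.95 for *GAL*, -1.53 for *RPS6KA2* and -1.49 for *LAMB1*. Genes called with shControl and not with shMBD6 had 2.10 for *SOD3*, 1.40 for *MAP3K15*, 1.38 for *TNXB*, 1.25 for *CACFD1*, 1.12 for *LAGE3*, -4.73 for *ITGA4*, -2.09 for *DLX4*, -1.84 for *FN1*, -1.65 for *BCL2* and -1.55 for *LIFR*. *MBD6* had a term of 0.28 and *TET2* of -0.27.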

How the results depend on the processing

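Scaling to the ERCC spike-ins gave 10747 genes with shMBD6 (9700 higher and 1047 lower), 16181 with shControl (15959 higher and 222 lower), 13321 with an interaction (56 positive and 13265 negative) and 9722 called with both hairpins in the same direction, because the median of all genes moved to 0.31, 1.26 and -0.95 for the 3 contrasts. Of the 7985 genes called with shMBD6, 64.6% kept their call and direction under it, against 85.4% to 98.9% under the other settings compared. It turned *TET2* to 0.14, and the interaction terms of *CFAP107* (0.36), *ACVRL1* (0.31), *INSRR* (0.18), *MAP3K15* (0.44), *CACFD1* (0.29) and *LAGE3* (0.16) no longer passed. With a minimum of 2-fold, 1793 genes were called. DESeq2 gave 7827 genes with shMBD6, the fit of the 6 shMBD6 libraries 7664, the fit without a filter on low counts 7830 and an unadjusted p under 0.05 gave 9108. The replicate block gave 7780 genes with shMBD6, 7501 with shControl, 3654 interactions and 4476 called with both. The replicate numbers did not pair the samples: deviations of same-numbered WT and KO shMBD6 libraries had correlations of -0.044, -0.045 and 0.015 over 10553 genes. Leaving out each library in turn gave 7059 to 8062 genes with shMBD6, 6812 to 8134 with shControl, 3226 to 4077 interactions and 4212 to 4594 with both, and a difference in spike-in share of -0.0741 to -0.0717 percentage points. Of the values of single genes under an alternative, 886 kept their direction and their side of the threshold, 9 lost the threshold, 10 passed it newly (all *TET2*) and 1 reversed. The depth of 32563524 to 37353366 gene counts leaves the fold of genes near 0 counts, such as *ZPLD1*, as a lower bound.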

Other observations

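The larger classes of noncoding genes had more members higher than lower in KO with shMBD6. Of 2973 lncRNA genes tested, 498 were higher and 284 lower in KO (median 0.11), and of 769 processed pseudogenes 97 were higher and 34 lower (median 0.12). Transcribed unprocessed pseudogenes had 87 higher and 50 lower of 331 (median 0.14). Transcribed unitary pseudogenes had 12 higher and 12 lower of 53 (median -0.04), and genes of the annotation class TEC, which awaits experimental support, had 18 and 14 of 197 (median -0.09). Protein-coding genes had 3331 higher and 3437 lower of 13104 (median 0.00). With shControl the medians were 0.02 for lncRNA genes, 0.04 for processed pseudogenes and 0.12 for transcribed unprocessed pseudogenes. Reads of pseudogenes may belong to their parent genes, and the part of such reads was not tested.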
